A study of Mus musculus with 6 samples.

Results

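The genes described here make cholesterol, sense it or move it within the cell. They are 20 enzymes of the route from acetyl-CoA to cholesterol, 5 genes of the sterol-sensing system and 4 genes of sterol transport. These 29 of the 22869 genes with a symbol in the deposited table were taken by symbol, and a symbol with several transcript rows is represented by its most abundant row. The list does not hold every gene of the pathway. RNA was sequenced from cells of the pituitary, sorted by FACS (fluorescence-activated cell sorting) into somatotropes, which secrete growth hormone, and lactotropes, which secrete prolactin. The donors in both groups were females of a CD1 x C57BL/6 hybrid cross, 6 to 8 weeks old. Each cell type had 3 libraries, numbered as biological replicates 1 to 3, and no transgene or treatment is named in the labels for either. The sources used here do not give the marker or gate of the sort, or the number of animals in a replicate. All levels below are FPKM (fragments scaled to transcript length and to the mapped fragments of the library). Levels of different genes within a library are set side by side on this scale. Such comparisons are approximate, since how fragments were assigned to genes is not stated.

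Cholesterol is built from acetyl-CoA through mevalonate, isoprenyl diphosphates, squalene and lanosterol. Its synthesis is set by the transcription factors SREBP-1 and SREBP-2, which the escort protein Scap carries from the endoplasmic reticulum to the Golgi when membrane sterol is low. Insig proteins hold Scap back when sterol is plentiful. Cells also recover cholesterol from lysosomes through acid lipase and the Npc1 and Npc2 proteins. In secretory cells such as those of the pituitary, cholesterol is a component of secretory granule and plasma membranes.

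The libraries differed in ways other than cell type. Gh, which encodes growth hormone, was highest in the 3 somatotrope libraries (19384 to 84909 FPKM against 3954 to 7623 FPKM), and Prl, which encodes prolactin, in the 3 lactotrope libraries (25171 to 195325 FPKM against 8709 to 24481 FPKM). Prl alone held 46.6%, 12.1% and 53.0% of the summed FPKM in lactotropes 1 to 3, and Gh 27.4%, 9.95% and 20.1% in somatotropes 1 to 3, where Prl held another 3.38% to 11.3%. Since FPKM are scaled to the mapped fragments of a library, such shares can lower its other values, in both cell types. Shares of summed FPKM are not shares of fragments, so the size of this effect is not known. Tests ran on the 11642 genes whose mean over the libraries reached 1 FPKM. Of these lactotrope 3 listed 14.9% at 0, against 0.232% to 2.95% in the other 5 libraries. The 13 leukocyte and macrophage markers were each higher in the lactotrope library in all 3 replicate pairs, a pair being the somatotrope and the lactotrope library with the same number. The labels do not say whether the libraries of a pair share animals. Their summed level was 306 to 6256 FPKM in somatotropes and 928 to 13845 FPKM in lactotropes, led by Cd74 and C1qb. Markers of pituitary stem and folliculostellate cells were higher in somatotropes in all 3 pairs for 6 of 7 tested, and their 8 listed genes, led by Mia1 and Aldh1a2, summed to 181 to 1625 FPKM against 102 to 543 FPKM. No leukocyte marker was listed at 0 in any library, while Aldh1a1 was listed at 0 in lactotrope 3 and S100b in lactotropes 1 and 3. Endothelial markers summed to at most 3.89 FPKM in any library. Depth is unknown, so no counting interval is attached to a value.

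The first question was whether the sterol genes as a group differed between the cell types. Of the 29 genes, 26 reached that mean and were tested with limma on log2(FPKM + 1). Hmgcs1, Idi1 and Hsd17b7 lay below that level. None of the 26 passed at an adjusted p of 0.05 (Benjamini-Hochberg over all 11642 genes), where the share of all genes called was 0%. At an unadjusted p under 0.05 limma gave 0 of the 26 genes. Of all 11642 genes it gave 59 on the somatotrope side and 53 on the lactotrope side, so few of any 26 genes would be reached. With the replicate number as a block limma again called 0 of the 26 and 0% of all genes, with a smallest adjusted p of 0.312 among the 26, that of Sc4mol. Gh and Prl did not pass limma's test either, with adjusted p of 0.315 and 0.347 under the block. A gene that did not pass is therefore not shown to be equal in the cell types. Under the block 6 of the 26 (23.1%) had an unadjusted p under 0.05, and all 6 were higher in somatotropes: Acat2, Fdps, Fdft1, Sqle, Sc4mol and Insig2. Over all genes that share was 7.17% for genes higher in somatotropes and 3.75% for genes higher in lactotropes.

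Of the 26 tested genes, 13 (50%) were higher in the somatotrope library in all 3 pairs, against 22.9% of all genes tested. These were Acat2, Mvd, Fdps, Ggps1, Fdft1, Sqle, Lss, Lbr, Sc4mol, Ebp, Insig1, Insig2 and Stard4. Mvk, Npc2 and Lipa were higher in the lactotrope library in all 3 pairs, 3 of 26 beside 11.2% of all genes, and the other 10 were mixed. Of all 29 genes, the 3 untested ones included, 16 had the somatotrope library higher in every pair. No share over all genes without the filter stands beside that count. The 3 untested genes were near the floor in lactotrope 3, with Hmgcs1 and Idi1 listed at 0 and Hsd17b7 at 0.0100 FPKM. The median difference, somatotrope minus lactotrope on the log2(FPKM + 1) scale, was 0.38 over the 26 genes and 0.18 over all genes. By pair it was 0.30, 0.43 and 0.48 over the 26 genes and 0.00, 0.12 and 0.36 over all genes, so the 2 medians lay closest in pair 3, the pair that holds lactotrope 3. With lactotrope 3 left out, the median over the sterol genes was 0.12 and that over all genes -0.13, and without somatotrope 1 they were 0.10 and -0.11. With lactotrope 1 left out they were 0.70 and 0.59. Median-ratio scaling moved the median of all genes to 0.05 and that of the sterol genes to 0.22. With values rescaled without Gh and Prl these medians were 0.16 and 0.34. These counts and medians carry no test of their own, and in bulk sorted cells fewer cells of a type and less RNA per cell cannot be told apart.

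**Figure D1:**
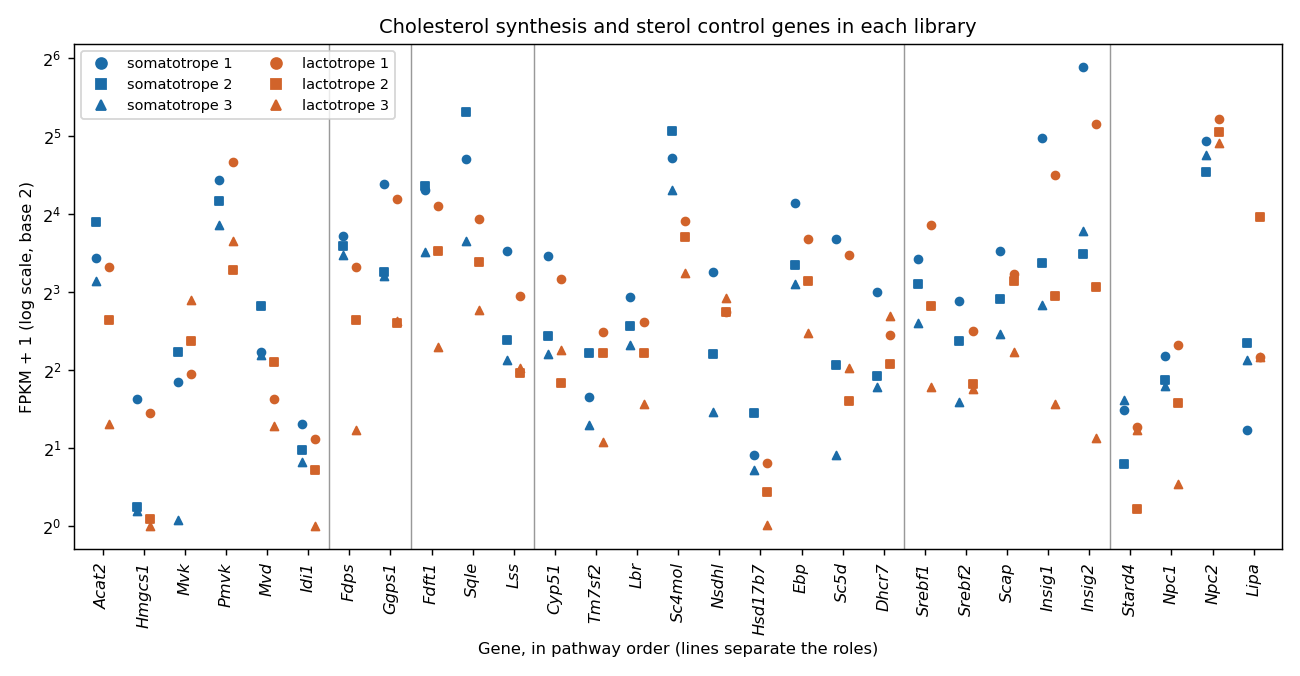
FPKM + 1 on a log scale (base 2) for the 29 genes in pathway order, with 1 symbol per library, colour for cell type and shape for replicate number. The 3 somatotrope libraries lie above the 3 lactotrope libraries for Mvd, Fdps and Sc4mol, and Insig2 and Insig1 are highest in replicate 1 of both cell types.

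Complete separation of the cell types was seen for 3 of the 26 genes. All 3 somatotrope libraries lay above all 3 lactotrope libraries for Mvd, Fdps and Sc4mol, where 2.51% of all genes tested did so, and for 0 of the 26 the order was reversed, beside 1.15% of all genes. Since FPKM depends on what else a library holds, the level of each gene was also read as its percentile among the 11642 genes of the same library, a measure added after the levels had been seen. By percentile the somatotrope libraries lay above the lactotrope libraries for Fdps, Sqle and Sc4mol, 3 of 26 beside 2.99% of all genes, and the reverse held for 0 of 26 beside 2.41%. Fdps and Sc4mol were therefore separated on both scales, Mvd by FPKM only and Sqle by percentile only.

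Promoter sequences are shown because many genes of this pathway are known targets of SREBP, which acts there together with the factors NF-Y and Sp1. Windows of 300 bases around the annotated start, from RefSeq on GRCm38.p6, were at hand for 24 of the 29 genes. The letters searched on both strands were the sterol regulatory element TCACNCCAC, the palindromic SREBP E-box TCACGTGA, the NF-Y box CCAAT and the Sp1 box GGGCGG, and no one of them contains another. A window held CCAAT in 22 of the 24 genes (91.7%), against 41.1% of all 27025 genes with a window and 43.3% of the 8179 tested genes matched by symbol. GGGCGG was found in 22 of 24 (91.7%) as well, against 38.2% of all genes and 69.3% of the tested ones. Over all windows of a gene, 20 genes held both, and for Insig2 the boxes lay in different windows. Acat2 and Scap were the genes with no CCAAT. TCACNCCAC was found in Hmgcs1 alone of the 24, beside 1.44% of all genes and 1.42% of the tested ones, and TCACGTGA in none, beside 1.12% and 2.43%. A match is a description of letters, and no match says only that these letters are not in the window. The windows of 4 genes follow, 5′ to 3′ on the gene's strand, with CCAAT (or ATTGG, the same box on the other strand) and TCACNCCAC in capitals. They are Hmgcs1 at chr13:119690101-119690400 (plus strand), which holds the sterol element, Mvd at chr8:122443373-122443672 (minus strand) and Sc4mol at chr8:64733529-64733828 (minus strand), which separated the cell types, and Acat2 at chr17:12960676-12960975 (minus strand), which has neither box in capitals.
Hmgcs1: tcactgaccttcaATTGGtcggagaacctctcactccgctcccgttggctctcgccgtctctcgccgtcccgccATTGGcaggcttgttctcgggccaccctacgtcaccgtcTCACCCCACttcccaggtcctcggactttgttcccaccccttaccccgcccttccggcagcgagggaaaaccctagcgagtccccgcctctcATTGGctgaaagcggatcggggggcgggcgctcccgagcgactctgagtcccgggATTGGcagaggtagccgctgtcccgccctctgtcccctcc
Mvd: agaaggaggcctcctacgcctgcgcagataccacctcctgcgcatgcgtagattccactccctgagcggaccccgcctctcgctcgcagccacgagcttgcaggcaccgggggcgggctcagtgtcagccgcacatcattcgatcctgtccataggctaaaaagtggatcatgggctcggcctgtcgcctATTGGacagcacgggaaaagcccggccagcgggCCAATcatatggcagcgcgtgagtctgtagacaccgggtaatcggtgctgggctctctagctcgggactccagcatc
Sc4mol: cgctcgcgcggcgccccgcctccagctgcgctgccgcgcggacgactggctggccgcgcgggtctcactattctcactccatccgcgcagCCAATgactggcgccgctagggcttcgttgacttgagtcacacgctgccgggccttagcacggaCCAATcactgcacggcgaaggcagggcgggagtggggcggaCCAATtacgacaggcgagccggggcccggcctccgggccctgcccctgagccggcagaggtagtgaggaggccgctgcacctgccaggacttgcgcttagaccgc
Acat2: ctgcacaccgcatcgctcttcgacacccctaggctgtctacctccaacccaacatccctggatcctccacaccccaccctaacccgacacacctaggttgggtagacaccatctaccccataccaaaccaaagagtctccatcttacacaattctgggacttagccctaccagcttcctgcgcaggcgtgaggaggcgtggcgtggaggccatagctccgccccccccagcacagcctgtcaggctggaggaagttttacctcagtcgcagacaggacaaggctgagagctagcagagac

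In the Hmgcs1 window the sterol element TCACCCCAC begins at -137, counted from the annotated start. NF-Y boxes lie there at -237, -176, -45 and 11, all on the other strand. The Sc4mol window holds 3 CCAAT boxes on the gene's strand, at -160, -96 and -55. Mvd has 2, at -60 on the other strand and at -27. Since all but Acat2 and Scap of the 24 genes hold the NF-Y box, its presence cannot be compared with their direction.

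Of the 6 mevalonate enzymes, 4 were tested, with 2 higher in somatotropes and 1 in lactotropes in all 3 pairs. Acat2, the cytosolic thiolase that joins acetyl-CoA units, had 9.85, 13.9 and 7.82 FPKM in somatotropes 1 to 3 and 8.99, 5.25 and 1.48 FPKM in lactotropes 1 to 3. Lactotrope 1 overlaps the somatotrope range and lactotropes 2 and 3 lie below it. Its log2 difference was 1.07 (SE 0.70, limma adjusted p = 1.00, and 0.410 with the replicate block), and 0.51 without lactotrope 3. Acat3, a close paralogue whose row ends before that of Acat2 begins on chromosome 17, had 4.37 to 21.2 FPKM in somatotropes and 4.70 to 20.0 FPKM in lactotropes, and the sources used here do not say how reads shared by both genes were counted. Hmgcs1, the synthase of HMG-CoA, was listed at 2.09, 0.190 and 0.150 FPKM in somatotropes and 1.73, 0.0650 and 0 FPKM in lactotropes. Both of its rows lie on the unplaced part of chromosome 13 in mm9 and hold nearly the same values. Its level is uncertain, since how reads were shared between the copies is not stated.

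Mvk, mevalonate kinase, had 2.62, 3.71 and 0.0566 FPKM in somatotropes 1 to 3 against 2.87, 4.20 and 6.49 FPKM in lactotropes. All 3 pairs were higher in lactotropes, pairs 1 and 2 by little, and somatotrope 3 stands apart. The log2 difference was -1.02 (SE 0.77, limma adjusted p = 1.00) and -0.37 without somatotrope 3. Pmvk, phosphomevalonate kinase, was among the higher enzymes at 13.5 to 20.7 FPKM in somatotropes and 8.73 to 24.4 FPKM in lactotropes, with mixed pairs. Mvd, the decarboxylase that makes isopentenyl diphosphate, had 3.71, 6.12 and 3.59 FPKM in somatotropes and 2.09, 3.31 and 1.43 FPKM in lactotropes. Its lowest somatotrope library was just above its highest lactotrope library, and the ratio of the libraries in a pair was 1.77, 1.85 and 2.51. The log2 difference of 0.75 (SE 0.69) did not pass limma's test (adjusted p = 1.00, and 0.484 with the replicate block), and an exact permutation test of the gene alone, two-sided, gave p = 0.1, the floor of a design of 3 against 3. Idi1, the isomerase, was low in all libraries at 0.774 to 1.49 FPKM in somatotropes and 0 to 1.17 FPKM in lactotropes.

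At the branch point, Fdps makes farnesyl diphosphate, the precursor of squalene and of prenyl groups. It had 12.2, 11.1 and 10.2 FPKM in somatotropes 1 to 3 and 9.02, 5.28 and 1.35 FPKM in lactotropes 1 to 3. The somatotrope libraries were close to one another at 11.2 ± 1.04 FPKM (SD, n = 3) and the lactotrope libraries spread over 5.22 ± 3.84 FPKM, and the groups did not overlap. The log2 difference was 1.20 (SE 0.69, limma adjusted p = 1.00, and 0.378 with the replicate block), but 0.61 without lactotrope 3. The exact permutation test of Fdps alone gave p = 0.1, two-sided. Complete separation fixes that value in a design of 3 against 3, so it adds nothing to the separation, for Mvd as well. Ggps1, which makes geranylgeranyl diphosphate for protein prenylation, differed less, with pair ratios of 1.16, 1.70 and 1.58 and a log2 difference of 0.48 (SE 0.68). Its groups overlapped widely, at 8.25 to 20.0 FPKM in somatotropes and 5.07 to 17.3 FPKM in lactotropes.

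The 3 enzymes from farnesyl diphosphate to lanosterol were higher in somatotropes in every pair. Fdft1, squalene synthase, had 18.9, 19.6 and 10.5 FPKM in somatotropes against 16.3, 10.6 and 3.91 FPKM in lactotropes, with overlap between somatotrope 3 and lactotropes 1 and 2. Its log2 difference was 0.75 (SE 0.65, limma adjusted p = 1.00, and 0.455 with the replicate block), 0.24 without lactotrope 3 and 1.15 without lactotrope 1. The Fdft1 row shares 773 bases of its span with Ctsb, a more abundant cathepsin gene (92.9 to 331 FPKM) on the opposite strand, and whether counting used strand is not given. Sqle, squalene monooxygenase and a rate-limiting enzyme of the later pathway, had 25.1, 38.9 and 11.6 FPKM in somatotropes and 14.4, 9.47 and 5.83 FPKM in lactotropes. Lactotrope 1 lies above somatotrope 3, so the groups overlap by FPKM, whereas each pair was apart by 1.74, 4.11 and 1.99 times. The Sqle percentile was 83.1, 94.2 and 79.5 in somatotropes and 69.9, 76.2 and 70.9 in lactotropes, without overlap. Its log2 difference was 1.19 (SE 0.63, limma adjusted p = 1.00, and 0.332 with the replicate block) and ran from 0.81 to 1.64 with libraries left out. Lss, which closes the ring system as lanosterol synthase, had smaller pair ratios of 1.56, 1.45 and 1.1 at 2.92 to 10.6 FPKM over all libraries. Its span shares 8064 bases with 4930483K19Rik on the opposite strand.

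**Figure D2:**
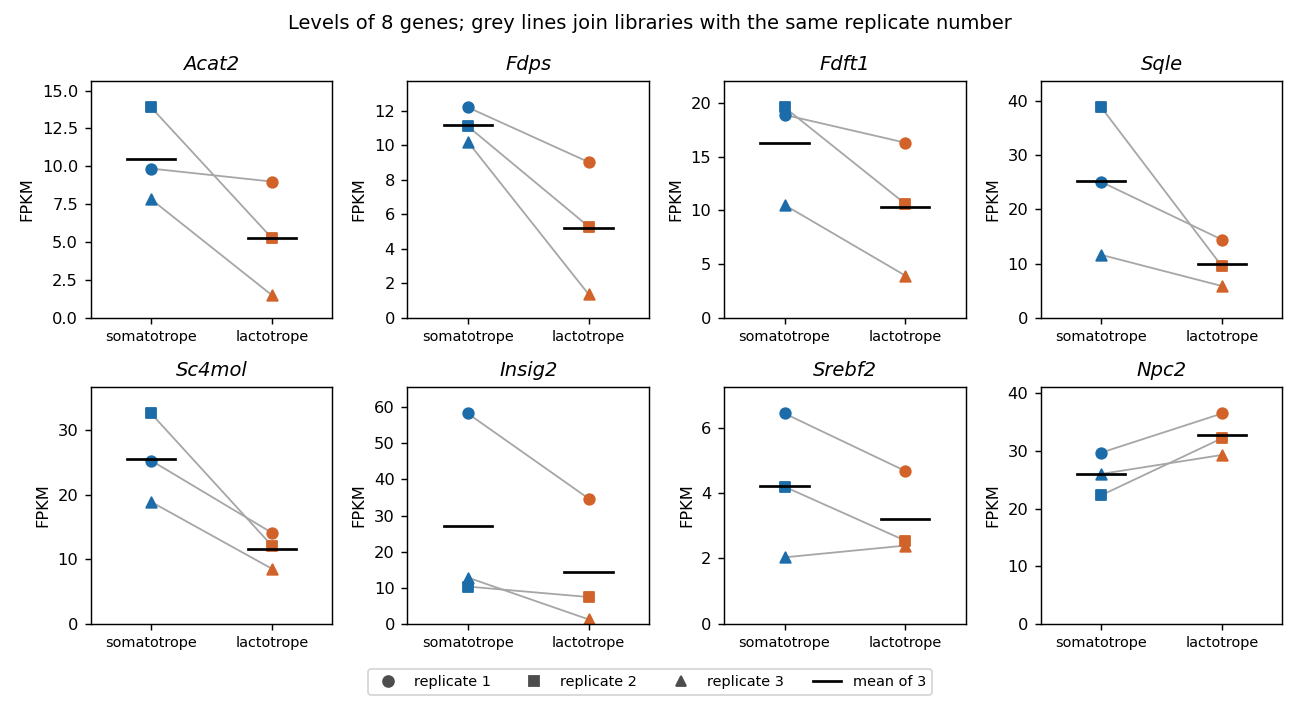
FPKM in each library for 8 genes picked after their values were seen, with grey lines joining the somatotrope and lactotrope library of the same replicate number and black bars at the mean of 3. All grey lines fall from somatotrope to lactotrope for Acat2, Fdps, Fdft1, Sqle, Sc4mol and Insig2, 1 of the 3 rises for Srebf2, and all rise for Npc2.

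Among the 9 enzymes from lanosterol to cholesterol, 3 of the 8 tested were higher in somatotropes in all 3 pairs: Lbr, Sc4mol and Ebp. Sc4mol, the older symbol of Msmo1, encodes a methyl oxidase that starts removal of some of the methyl groups of the sterol ring. It had 25.3, 32.6 and 18.9 FPKM in somatotropes 1 to 3 and 14.1, 12.1 and 8.52 FPKM in lactotropes 1 to 3. All somatotrope libraries were above all lactotrope libraries, and the pair ratios were 1.79, 2.70 and 2.22. Its percentile was 83.2, 92.8 and 88.1 against 69.4, 81.6 and 78.6, again without overlap. The log2 difference was 1.07 (SE 0.56, limma adjusted p = 1.00, and 0.312 with the replicate block). It ran from 0.89 to 1.27 with libraries left out, and was 0.88 under median-ratio scaling and 1.03 when values were rescaled without Gh and Prl. The exact permutation test of Sc4mol alone gave p = 0.1, two-sided, again the value that the separation fixes. In the mm9 coordinates of the table, Sc4mol spans chromosome 8 from 67196942 to 67212375 on the minus strand, Sqle chromosome 15 from 59146647 to 59162748 on the plus strand and Fdps chromosome 3 from 88897510 to 88905889 on the minus strand.

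Nsdhl, the dehydrogenase that works with Sc4mol on the same methyl groups, had 8.56, 3.61 and 1.77 FPKM in somatotropes and 5.75, 5.73 and 6.62 FPKM in lactotropes. Its pairs pointed in different directions, with a log2 difference of -0.50 (SE 0.70), -0.98 without somatotrope 1 and -0.08 without somatotrope 3. Hsd17b7, the keto-reductase of that complex, was low at 0.882, 1.75 and 0.647 FPKM against 0.756, 0.355 and 0.0100 FPKM. Cyp51, which removes another methyl group, had 3.64 to 10.1 FPKM in somatotropes and 2.58 to 8.04 FPKM in lactotropes with mixed pairs. Lbr and Tm7sf2 encode alternative reductases for the same double bond, and Lbr is also a lamin receptor of the nuclear envelope. Lbr had 4.02 to 6.68 FPKM in somatotropes and 1.96 to 5.17 FPKM in lactotropes, and Tm7sf2 1.46 to 3.66 FPKM and 1.11 to 4.64 FPKM. The Lbr level was 3.11, 1.35 and 2.75 times that of Tm7sf2 in somatotropes 1 to 3 and 1.11, 0.998 and 1.77 times in lactotropes 1 to 3. That ratio was higher in the somatotrope library of each pair, and the groups overlapped. It was among 6 ratios computed between members, and was chosen after its values were seen.

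Of the last steps, Ebp, the sterol isomerase, was higher in somatotropes in each pair by ratios of 1.40, 1.18 and 1.66, at 7.64 to 16.7 FPKM against 4.60 to 11.9 FPKM. Sc5d, the desaturase, had 11.9, 3.19 and 0.883 FPKM in somatotropes and 10.2, 2.06 and 3.07 FPKM in lactotropes, and was highest in replicate 1 of both cell types. Dhcr7, the final reductase of one branch, had 7.01, 2.81 and 2.44 FPKM against 4.47, 3.24 and 5.47 FPKM, with mixed pairs and a log2 difference of -0.17 (SE 0.69) that ran from -0.55 to 0.20 with libraries left out. For these late enzymes the median log2 difference over the 8 tested was 0.07. It was 0.75 for the 3 enzymes of squalene and lanosterol formation, 0.84 for the pair Fdps and Ggps1 and 0.52 for the 4 tested mevalonate enzymes. Under median-ratio scaling these medians were, in the same order, -0.09, 0.59, 0.69 and 0.35. Whether these groups of steps differ from one another was not tested.

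**Figure D3:**
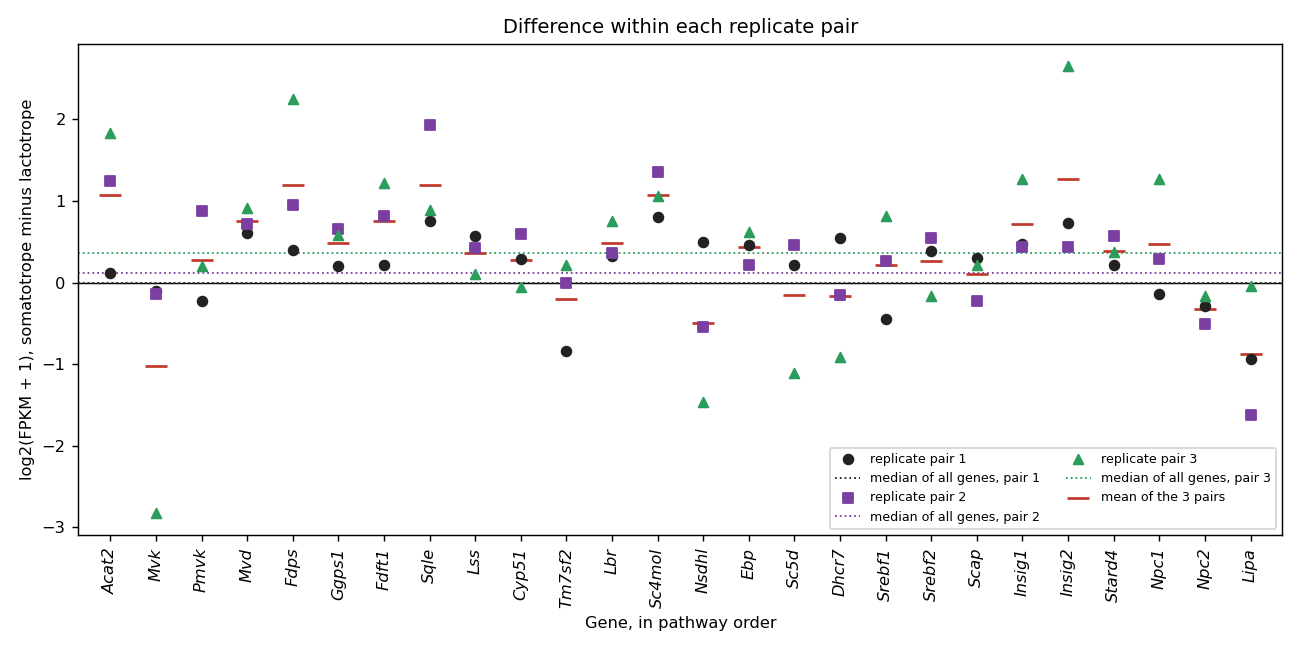
Difference in log2(FPKM + 1), somatotrope minus lactotrope, within each replicate pair for the 26 tested genes, with the mean of the pairs as a red bar and the median of all genes in each pair as a dotted line. The 3 pairs lie close together for Mvd and Sc4mol, whereas for Mvk, Fdps and Insig2 pair 3 lies far from the others.

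The sterol-sensing genes were compared next. Srebf1 encodes SREBP-1, which also drives fatty acid synthesis, and had 9.75, 7.59 and 5.09 FPKM in somatotropes and 13.6, 6.11 and 2.44 FPKM in lactotropes. Its row shares 107 bases with Rai1 on the opposite strand. Srebf2 encodes SREBP-2, the main factor of cholesterol genes, and had 6.43, 4.19 and 2.03 FPKM in somatotropes and 4.67, 2.54 and 2.39 FPKM in lactotropes. Both genes overlapped between cell types and had mixed pairs, with log2 differences of 0.22 (SE 0.70) and 0.26 (SE 0.70) that reached -0.30 and -0.04 with libraries left out. Srebf1 exceeded Srebf2 in all 6 libraries, by 1.02 to 2.91 times. Scap had 4.51 to 10.6 FPKM in somatotropes and 3.72 to 8.43 FPKM in lactotropes, and its log2 difference of 0.10 turned to -0.08 under median-ratio scaling and -0.09 under quantile normalization.

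The products of the Insig genes retain the Scap-SREBP complex in the endoplasmic reticulum. Insig1, itself a target of SREBP, had 30.5, 9.40 and 6.17 FPKM in somatotropes 1 to 3 and 21.8, 6.74 and 1.97 FPKM in lactotropes 1 to 3. Insig2 had 58.3, 10.3 and 12.8 FPKM in somatotropes and 34.7, 7.40 and 1.19 FPKM in lactotropes, and in somatotrope 1 it was the most abundant of the 29 genes. Replicate 1 of both cell types was far above replicates 2 and 3 for both genes. Within pairs the somatotrope library was higher by 1.40, 1.40 and 3.14 times for Insig1 and by 1.68, 1.39 and 10.7 times for Insig2. The log2 difference of Insig2 was 1.27 (SE 0.94, limma adjusted p = 1.00, and 0.382 with the replicate block). It was 0.28 without lactotrope 3, 0.52 without somatotrope 1 and 2.29 without lactotrope 1. That of Insig1 was 0.72 (SE 0.82), and 0.00, 0.10 and 1.47 without the same libraries. Insig2 has a second transcript row on chromosome 1 with 2.26 FPKM in lactotrope 3 and 8.23 to 48.8 FPKM in the other libraries. By the row used here Insig2 was above Insig1 in 5 of 6 libraries, and Insig1 was 1.65 times Insig2 in lactotrope 3. That reversal depends on the row, since the second row lay above Insig1 in lactotrope 3 as well, at 2.26 against 1.97 FPKM. In pair 3 the second row had 12.2 against 2.26 FPKM, a smaller ratio than that of the row used. Of the tested sterol genes, 15 of 26 (57.7%) were highest in replicate 1 of both cell types, beside 63.1% of all genes tested.

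Of the 4 transport genes, Npc2 and Lipa were higher in lactotropes and Stard4 in somatotropes in all 3 pairs. Npc2, the lysosomal protein that binds cholesterol released from lipoproteins, had 29.7, 22.3 and 26.0 FPKM in somatotropes and 36.5, 32.2 and 29.3 FPKM in lactotropes. All 6 libraries lay between 22.3 and 36.5 FPKM, and the groups overlapped only at somatotrope 1 and lactotrope 3. Its log2 difference was -0.32 (SE 0.52, limma adjusted p = 1.00). Lipa, the acid lipase that frees cholesterol from its esters, had 1.35, 4.12 and 3.37 FPKM in somatotropes and 3.52, 14.7 and 3.49 FPKM in lactotropes. Lactotrope 2 was far above the others, and pair 3 was level. Its log2 difference was -0.87 (SE 0.75), -0.27 without lactotrope 2 and -0.53 without somatotrope 1. Summed leukocyte markers were 928, 13845 and 5059 FPKM in lactotropes 1 to 3 and 306, 6256 and 3202 FPKM in somatotropes 1 to 3. The sum and Lipa were both highest in lactotrope 2 and lowest in somatotrope 1. In the other libraries Lipa lay between 3.37 and 4.12 FPKM, while the sum ran from 928 to 6256 FPKM. Macrophages express Lipa and Npc2, and the part of these cells in both differences was not tested.

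**Figure D4:**
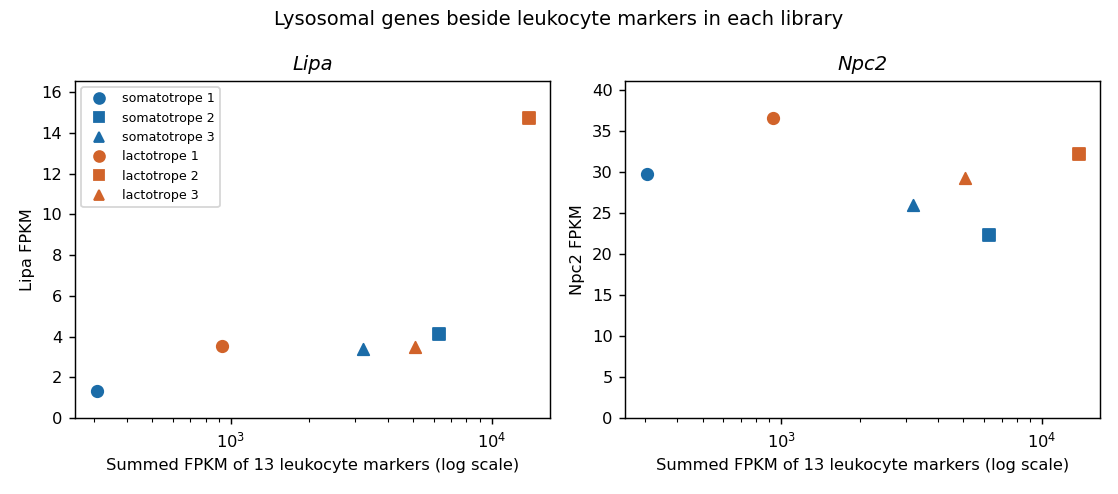
FPKM of Lipa (left) and Npc2 (right) against the summed FPKM of 13 leukocyte and macrophage markers (log scale) in each of the 6 libraries. Lipa is highest in lactotrope 2, which has the highest marker sum (13845 FPKM), and lowest in somatotrope 1, which has the lowest (306 FPKM). In the other libraries Lipa lies between 3.37 and 4.12 FPKM at marker sums of 928 to 6256 FPKM. Npc2 lies between 22.3 and 36.5 FPKM over all 6 libraries.

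Npc1, the membrane protein that takes cholesterol from Npc2 and exports it from the lysosome, had 2.49 to 3.54 FPKM in somatotropes and 4.02, 2.00 and 0.452 FPKM in lactotropes 1 to 3. The Npc2 level was 8.35 to 10.4 times that of Npc1 in somatotropes and 9.09, 16.1 and 64.8 times in lactotropes, the last being lactotrope 3. The Npc1 span shares 276 bases with 3110002H16Rik on the opposite strand. Stard4, a cytosolic sterol carrier, was low at 0.740 to 2.07 FPKM in somatotropes and 0.172 to 1.42 FPKM in lactotropes, and higher in the somatotrope library of each pair. Summed over the 20 synthesis enzymes, the level was 217, 191 and 111 FPKM in somatotropes and 170, 96.8 and 75.5 FPKM in lactotropes. Summed over the 4 transport genes it was 36.4, 29.9 and 33.9 FPKM in somatotropes and 45.5, 49.1 and 34.6 FPKM in lactotropes. The enzyme sum was higher in the somatotrope library of each pair. The transport sum was mostly Npc2 and was nearly level in pair 3, and the median log2 difference of the 4 transport genes was 0.03, with 2 genes on either side of 0. Stem cell markers, at 181, 1625 and 986 FPKM in somatotropes and 102, 543 and 136 FPKM in lactotropes, were also higher in the somatotrope library of each pair. Their part in the enzyme values was not tested.

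Genes next to the pathway were described by the same counts. Of 11 tested genes of fatty acid synthesis, which SREBP also controls, 5 had the somatotrope library higher in every pair and 0 the lactotrope library, beside the 22.9% and 11.2% of all genes. Elovl5, a fatty acid elongase, had 52.3, 22.9 and 24.0 FPKM in somatotropes against 28.1, 10.4 and 4.97 FPKM, and its log2 difference was 1.33 (SE 0.68). Mid1ip1, a regulator of acetyl-CoA carboxylase, had 35.8, 37.8 and 23.1 FPKM against 24.4, 12.8 and 11.0 FPKM, a log2 difference of 1.01 (SE 0.57). Fads2, a fatty acid desaturase, had 25.9, 23 and 15.1 FPKM against 20.5, 12.2 and 2.05 FPKM. For all 3 genes the pairs were of 1 direction and the cell types overlapped, and none passed limma's test (adjusted p = 1.00). The list's median log2 difference was 0.48.

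Of the machinery that cleaves SREBP or degrades sterol-regulated proteins, 2 of 10 tested genes had the somatotrope library higher in every pair and 0 the lactotrope library, with a median log2 difference of 0.25. Of 14 intracellular sterol carriers, 4 were higher in somatotropes and 2 in lactotropes in all 3 pairs. Among them Stard3nl, a late endosomal protein, had 42.8, 38.3 and 22.2 FPKM against 26.7, 23.3 and 6.88 FPKM. Of 12 genes that use isoprenoids 3 were higher in somatotropes and 1 in lactotropes in all 3 pairs. Fnta, a subunit of the farnesyl and geranylgeranyl transferases, was level in pair 1 at 66.1 against 64.9 FPKM. It had 51.0 against 25.3 and 21.2 against 10.1 FPKM in pairs 2 and 3. The shares higher in somatotropes in every pair were 20.0%, 28.6% and 25.0% in these lists, near the 22.9% of all genes.

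Of 8 tested genes of liver X receptor action, efflux and esterification, 0 had the somatotrope library higher in every pair and 1 the lactotrope library. That gene, Pltp, the phospholipid transfer protein, had 1.76, 12.4 and 11.1 FPKM against 4.08, 27.9 and 13.1 FPKM. The list's median log2 difference was -0.11. Of 6 lipoprotein receptor genes, 2 were higher in all 3 pairs in each direction. Lrp1, a large endocytic receptor, had 1.01, 0.667 and 0.577 FPKM in somatotropes and 2.76, 2.61 and 1.02 FPKM in lactotropes, so that somatotrope 1 and lactotrope 3 nearly met without overlap. Its log2 difference was -0.79 (SE 0.65, limma adjusted p = 1.00). Of 5 oxysterol and steroid entry enzymes, 0 were higher in somatotropes and 1 in lactotropes in all 3 pairs, the one being Ch25h. Ch25h, which makes the oxysterol that blocks SREBP processing, had 0.683, 1.13 and 0.581 FPKM in somatotropes and 0.923, 6.53 and 5.42 FPKM in lactotropes, with overlap at lactotrope 1 and a log2 difference of -1.35 (SE 0.74, limma adjusted p = 1.00). Ch25h, Lrp1 and Pltp are also expressed by macrophages, whose markers were higher in the lactotrope library of every pair as given above, and their part was not tested. Beside each of these counts stand the 22.9% (somatotropes) and 11.2% (lactotropes) of all genes higher in all 3 pairs. Whether any of these lists differs from the sterol genes was not tested.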

How the data were processed

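Cells were sorted into Trizol LS and a NuGen Ovation V2 kit served to amplify the RNA, per the labels' protocols. The submitters' processing notes list mm9, TopHat, edgeR and bcl2fastq (2.17.1.14), without saying what each did. How fragments were assigned to genes, and whether strand was used, is not stated in the labels. The authors deposited FPKM values for 30399 transcript rows. Rows without a symbol (889) were dropped and the most abundant row per symbol was kept, giving 22869 genes. Each column was matched to its sample by the description. FPKM are not counts, so no count test was run. The lowest values lay on common steps, as whole reads give, between somatotrope 1, lactotrope 1 and lactotrope 2, but no steps were resolved for the other 3 libraries, so depth is unknown.

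Levels were tested as log2(FPKM + 1) with limma 3.58.1 in R 4.3.3 (intensity trend, Benjamini-Hochberg adjustment at 0.05, no block) where the mean reached 1 FPKM. The code was tested on simulated data. Libraries with the same number in their titles deviated together from their group means (r = 0.763, 0.613 and 0.341 across genes, which are not independent replicates, for numbers 1, 2 and 3). All 3 were above 0.1, so the numbers were taken as pairs. The labels do not say whether same-numbered libraries came from the same animals, so the pairing was inferred from these same data. Of the unmatched combinations, somatotrope 3 with lactotrope 2 also exceeded 0.1 (r = 0.233). A blocked fit stands beside the main one. The labels call the replicates biological without saying whether animals were pooled, so the p-values may cover technical spread only. The sterol genes, the other lists and the tests were chosen with earlier results of these data known. Named are all 29 genes, up to 3 genes of each related list, from the 3 with the smallest unadjusted p without the block (which of the 3 was decided after their values were seen), and the 2 most abundant markers of lists described at length. Other genes and ratios were chosen after their values were seen. Alternatives were other pseudocounts, filters, scalings, weights and row choices, and libraries left out.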

Additional observations from a re-analysis of the deposited data

How the results depend on the processing

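None of the 26 tested sterol genes passed limma's test in any of the 20 settings, and the smallest adjusted p was 0.132 (Sqle, array weights with the replicate block). For 16 genes, 12 of them higher in somatotropes, no setting that gave a value turned the sign of the difference. Of these, Mvk, Mvd, Lbr and Stard4 have no value under the 5 FPKM filter, and Insig1 was 0.00 without lactotrope 3. Array weights gave 9 calls over all genes, and 43 together with the replicate block. The block alone changed no call: 0 genes passed, as without it.

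Without any other change, the median log2 difference of the sterol genes was 0.19 with a pseudocount of 5, 0.22 with median-ratio scaling and 0.23 with quantile normalization. For squalene and lanosterol formation the same settings gave 0.54, 0.59 and 0.51. The late enzymes gave 0.28 with no filter, 0.28 with a 5 FPKM filter, -0.09 with median-ratio scaling and 0.25 with array weights and the block. Sterol transport gave 0.24 with a pseudocount of 0.1 and -0.59 with the 5 FPKM filter, which leaves fewer genes. Scap turned to -0.08 (median-ratio scaling), -0.09 (quantile normalization) and -0.28 (array weights). Sc5d turned to 0.09 with array weights and 0.13 with the block added, where Dhcr7 turned to 0.04.

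With libraries left out, calls over all genes ran from 0 to 3. Sterol genes higher in every pair left numbered 3 to 5 for lactotropes and 14 to 18 for somatotropes. Fewer pairs are left in these settings, so the counts are not comparable with those over all 3 pairs. No share over all genes stands beside them. Medians ran from 0.10 to 0.70 for the sterol genes, -0.13 to 0.59 for all genes, 0.18 to 0.71 for mevalonate steps, 0.42 to 1.33 for prenyl diphosphates, 0.24 to 1.15 for squalene and lanosterol, -0.14 to 0.53 for the late enzymes, 0.00 to 0.74 for SREBP control and -0.20 to 0.17 for transport. Differences that changed sign ran from -0.01 to 0.68 (Pmvk), -0.06 to 0.68 (Lss), -0.10 to 0.66 (Cyp51), -0.63 to 0.11 (Tm7sf2), -0.88 to 0.51 (Sc5d), -0.55 to 0.20 (Dhcr7), -0.30 to 0.74 (Srebf1), -0.04 to 0.60 (Srebf2), -0.22 to 0.35 (Scap) and -0.00 to 0.89 (Npc1). The causes of these shifts were not tested.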

Other observations

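Markers of other cell types differed between libraries in ways that do not follow the cell type labels. Erythroid markers, led by Hba-a1 and Hba-a2, which encode alpha globin, summed to 29.5, 86.8 and 4259 FPKM in somatotropes 1 to 3 and to 5.33, 325 and 3529 FPKM in lactotropes 1 to 3, and were thus highest in replicate 3 of both. Corticotrope and melanotrope markers summed to 95.4, 1213 and 5773 FPKM in somatotropes and 870, 554 and 426 FPKM in lactotropes. Gonadotrope markers summed to 7.17, 10.5 and 103 FPKM and 11.8, 7.74 and 18.7 FPKM, thyrotrope markers to 44.8, 11.2 and 52.4 FPKM and 85.6, 6.11 and 18.5 FPKM, and fibroblast and mural markers to 28.7, 33.8 and 56.5 FPKM and 71.9, 23.8 and 21.7 FPKM. Their part in the sterol gene values was not tested.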
